A study of Homo sapiens with 15 samples.

Results

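The interferon-stimulated genes are 39 human genes that cells switch on when an interferon reaches its receptor. They were chosen as a list of symbols covering RNA sensors, transcription factors and antiviral effectors, and their values were not a criterion. Earlier results of these data were known when the list was chosen. All 39 were found among the 58735 genes of the count table, and all 39 were among the 21019 genes that passed the filter on low counts. The data are RNA-seq counts of 15 cell line-derived xenograft (CDX) tumors, 5 for each of the models EGI-1, HuCC-A1 and HuCC-T1. HuCC-A1 and HuCC-T1 are cell lines of intrahepatic and EGI-1 is a cell line of extrahepatic human cholangiocarcinoma (CCA). The study treats HuCC-A1 as a model of high and EGI-1 as a model of low response to an antibody against CLDN1, a tight junction protein, and the comparison of their untreated tumors asks which transcripts differ beforehand.

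All 15 tumors grew in NRG mice that were given vehicle only, phosphate-buffered saline by intraperitoneal injection every week. NRG mice carry the Rag1-/- and IL2rg-/- alleles and lack T, B and NK cells. The labels give 6 weeks of vehicle for HuCC-A1 and 4 weeks for EGI-1, and no duration for HuCC-T1. Each model is 1 cell line, so the line, the site of origin, the class of response and the duration cannot be told apart. Nothing in the labels says whether the 5 tumors of a model came from 5 mice, and p-values measure the spread between these tumors. Total counts ranged from 20001412 to 33585265 in HuCC-A1, from 34239460 to 44067878 in EGI-1 and from 26163778 to 33984103 in HuCC-T1. Mitochondrial genes took 4.50 to 11.3% of the counts in HuCC-A1, 3.94 to 5.64% in EGI-1 and 5.97 to 8.36% in HuCC-T1. HuCC-T1 replicate 1 stood apart on principal component 3 of all genes.

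Interferons of type I bind the receptor pair IFNAR1 and IFNAR2, and interferons of type III bind IFNLR1 with IL10RB. The kinases JAK1 and TYK2 then activate STAT2, which together with IRF9 binds a short element in the promoters of its targets, the interferon-stimulated response element. The products block virus entry, translation and replication, degrade RNA, attach the ubiquitin-like protein ISG15 to other proteins, or sense further foreign nucleic acid. Many tumor cells express such genes without added interferon.

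Promoter windows were available from RefSeq (GRCh38.p14) for 32 of the 39 genes, each with 250 bases before and 50 bases after the gene start. IRF7, OAS2, OASL, MX2, IFIT2, IFITM2 and USP18 had no entry. The windows were searched on both strands for GAAANNGAAA, the core of the response element, and overlapping matches were counted separately. Other spacings and variants of the element were not searched, so a window without a match may still hold the element. Of the 32 windows 20 (62.5%) held at least 1 match and 14 held at least 2, against 996 of 27305 genes (3.65%). For 8 of the 32 genes RefSeq lists more than 1 window and the first was used, and with any window 22 genes held a match. The 160 bases before the RefSeq start are shown for 5 genes that hold a match and differ widely between models, while the windows used for SAMD9L and RSAD2, which also differ widely, held none. The 5 were chosen after their values were seen. They are written 5′ to 3′ on the strand of the gene, with the matches in capitals, and matches on the opposite strand read TTTCNNTTTC.
ISG15, chr1:1013337-1013496, plus strand: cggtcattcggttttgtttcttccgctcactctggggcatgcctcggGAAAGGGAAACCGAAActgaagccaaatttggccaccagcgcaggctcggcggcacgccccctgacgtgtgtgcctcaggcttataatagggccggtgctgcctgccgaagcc
HERC5, chr4:88456959-88457118, plus strand: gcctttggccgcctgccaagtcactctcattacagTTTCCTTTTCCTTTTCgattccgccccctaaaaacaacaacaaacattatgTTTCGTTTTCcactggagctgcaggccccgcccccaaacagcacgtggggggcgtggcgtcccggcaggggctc
OAS3, chr12:112938314-112938473, plus strand: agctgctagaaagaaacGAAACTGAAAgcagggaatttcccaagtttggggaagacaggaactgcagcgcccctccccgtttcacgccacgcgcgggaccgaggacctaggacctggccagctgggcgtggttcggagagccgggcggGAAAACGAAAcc
SAMD9, chr7:93117980-93118139, minus strand: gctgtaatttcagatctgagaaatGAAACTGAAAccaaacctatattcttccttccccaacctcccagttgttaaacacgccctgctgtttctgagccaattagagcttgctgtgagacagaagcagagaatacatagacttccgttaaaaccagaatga
EPSTI1, chr13:42992242-42992401, minus strand: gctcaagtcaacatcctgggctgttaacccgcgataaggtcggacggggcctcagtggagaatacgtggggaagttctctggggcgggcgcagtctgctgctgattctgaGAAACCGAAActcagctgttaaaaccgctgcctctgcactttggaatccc
ISG15 and HERC5 each hold overlapping matches, and HERC5 holds another one nearer to the start. SAMD9 and EPSTI1 hold 1 match each, and OAS3 holds 1 near each end. A match describes these letters only, and the reference sequence says nothing of the tumors' own sequence.

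**Figure D1:**
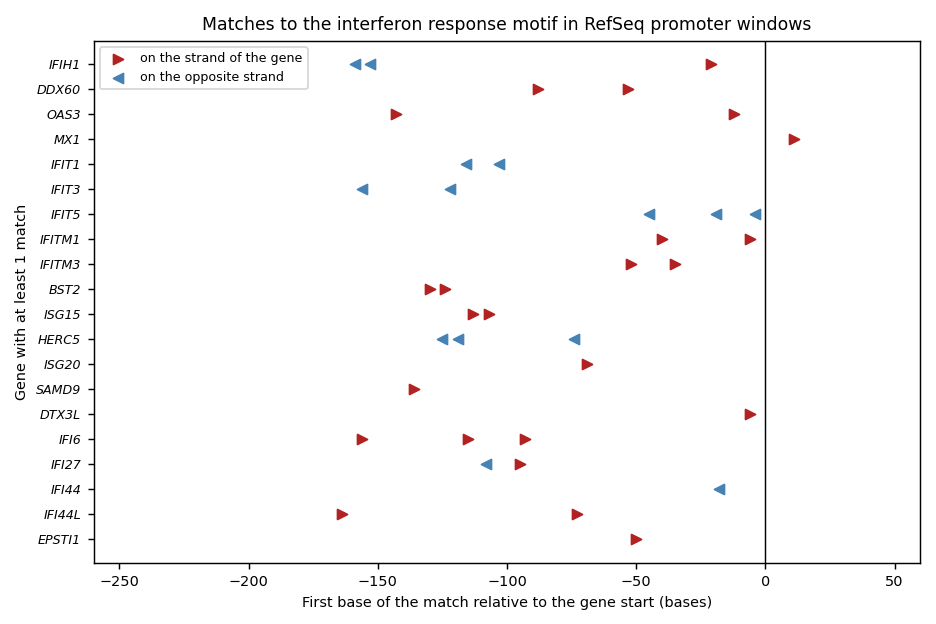
Position of each GAAANNGAAA match in the promoter windows of the 20 genes that hold one, with the first base of the match in bases from the gene start (vertical line) on the x axis and 1 gene per line. Red arrowheads are matches on the strand of the gene and blue ones on the opposite strand, and all but the match of MX1 begin before the start.

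Levels are counts scaled to a common total with TMM factors (CPM). Genes count as called where the p of the edgeR quasi-likelihood test, adjusted over 21019 genes, was below 0.05. Many of the interferon-stimulated genes were lower in HuCC-T1 tumors than in either other model. Against EGI-1, HuCC-T1 tumors had 18 of the 39 lower and 4 higher, where 25.0% of all genes were called lower and 27.3% higher. The median log2 fold change of the 39 genes was -0.66, against 0.06 over all genes tested. HuCC-A1 tumors had 24 of the 39 higher than HuCC-T1 tumors and 2 lower, where 29.1% of all genes were higher and 27.2% lower, with a median of 1.02 against 0.05.

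Between HuCC-A1 and EGI-1, the high and the low responders, the number of members called depended on the tumors in the fit. In the fit of all 15 tumors, 8 genes were higher in HuCC-A1 (SAMD9L, OAS3, SAMD9, IFIT2, OAS2, IFI44L, OASL and IFI44), 5 were lower (EPSTI1, IRF7, CMPK2, IFITM2 and IFI35) and 26 were not called. Over all genes 29.4% were called higher and 26.0% lower, against 20.5% and 12.8% of the members. The median log2 fold change was 0.24, against 0.06 over all genes. In a fit of the 10 tumors alone, 13 members were higher and 8 lower, where 31.1% of all genes were called higher and 29.1% lower. That fit added HERC6, IFI6, IFITM1, OAS1 and USP18 to the higher and DDX60, IRF1 and RSAD2 to the lower members. The 3 comparisons share their tumors in pairs, so that their counts are not independent.

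The tumors of 2 models overlapped for most members. No HuCC-A1 tumor overlapped any EGI-1 tumor in 7 higher and 4 lower members, where 23.0% and 21.6% of all genes were so separated. No HuCC-T1 tumor overlapped any EGI-1 tumor in 3 higher and 14 lower members (18.9% and 18.8% of all genes). Between HuCC-A1 and HuCC-T1 the numbers were 13 higher and 2 lower (20.0% and 18.8%).

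**Figure D2:**
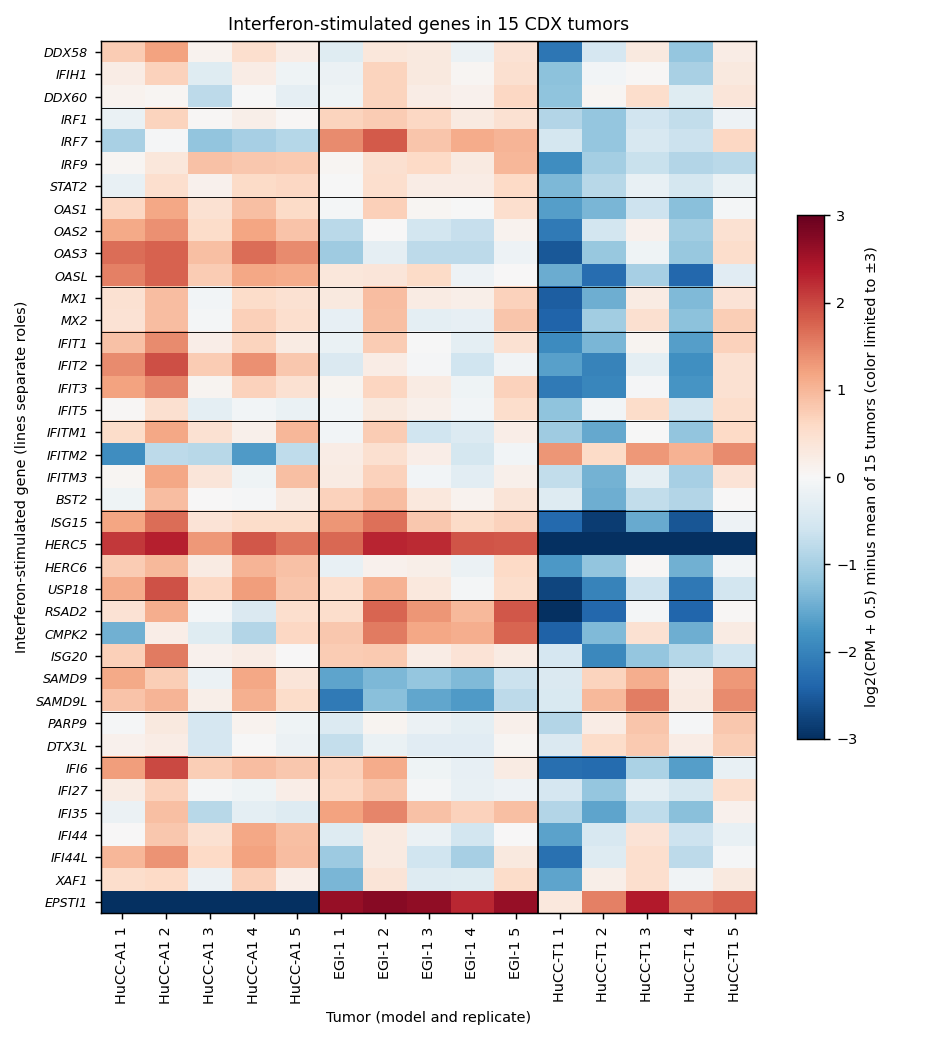
Level of the 39 genes in each of the 15 tumors, as log2(CPM + 0.5) minus the mean of that gene over the tumors, with genes in rows ordered by role and tumors in columns ordered by model. HuCC-T1 replicates 1, 2 and 4 are blue for most genes and replicate 5 is not, EPSTI1 is blue in the 5 HuCC-A1 tumors alone, HERC5 is blue in the 5 HuCC-T1 tumors alone, and SAMD9 and SAMD9L are blue in every EGI-1 tumor.

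Compared per kilobase of annotated exon, IFI6, ISG15 and BST2 were the 3 most abundant members in HuCC-A1 and EGI-1, and IFI6, BST2 and IFI27 in HuCC-T1. The mean RPKM of IFI6, a mitochondrial protein that restrains apoptosis, was 1054 in HuCC-A1, 607 in EGI-1 and 189 in HuCC-T1. That of ISG15 was 606, 651 and 109, and that of BST2, which tethers budding viruses to the membrane, was 335, 399 and 183. The exon length is the union over all transcripts, which lowers the value of genes with long rare isoforms.

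**Figure D3:**
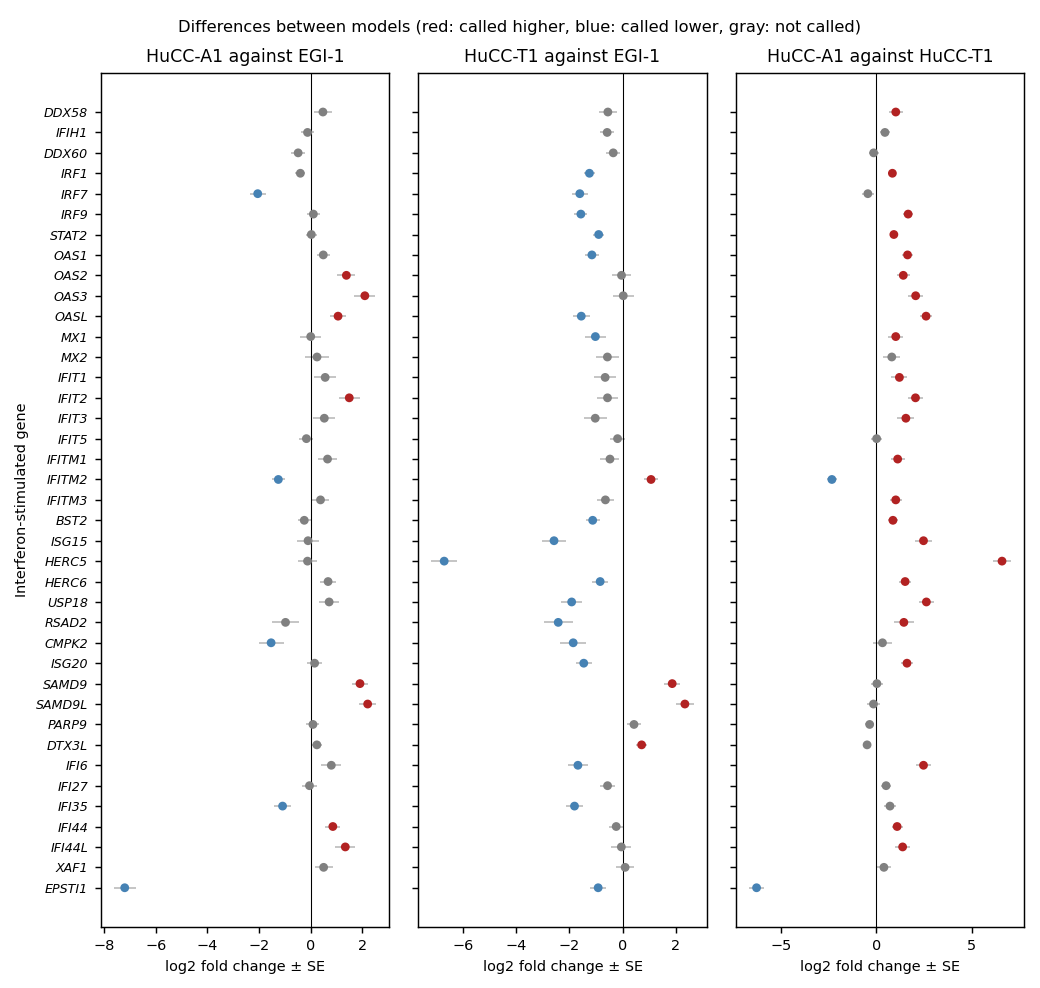
Log2 fold change of the 39 genes in the 3 comparisons, with bars for the standard error of the fit, red for genes called higher in the model named first, blue for genes called lower and gray for genes not called. The x axes differ in range. EPSTI1 at -7.20 and -6.28 and HERC5 at -6.72 and 6.60 lie far outside the range of the other members.

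The 4 members of the ISG15 system differed between HuCC-T1 and both other models, by unequal amounts (-0.84 to -6.72 against EGI-1 on the log2 scale). They are ISG15 itself, the ligases HERC5 and HERC6, and USP18. HERC5 is the main ligase for ISG15 in human cells, and USP18 removes ISG15 and also blocks the type I receptor. All 4 were lower in HuCC-T1 than in EGI-1, where 25.0% of all genes were lower. All 4 were higher in HuCC-A1 than in HuCC-T1, where 29.1% of all genes were higher. None was called between HuCC-A1 and EGI-1 in the fit of all 15 tumors, where 29.4% of all genes were higher and 26.0% lower. HERC6 was called higher in HuCC-A1 than EGI-1 in the fit of 10 tumors (0.66, adjusted p = 0.0068) and without HuCC-A1 replicate 3 (0.75) or EGI-1 replicate 5 (0.80), and USP18 in the fit of 10 tumors (0.70, adjusted p = 0.023). ISG15 was at 663, 935, 392, 429 and 431 CPM in HuCC-A1 replicates 1 to 5, at 730, 917, 509, 439 and 471 CPM in EGI-1 and at 57.5, 39.9, 102, 49.2 and 263 CPM in HuCC-T1. Every HuCC-T1 tumor was below every other tumor, and its replicate 5 was nearest to them. The difference was 5.99-fold from EGI-1 (log2 fold change -2.58 ± 0.45, SE, adjusted p = 0.00013) and 5.57-fold from HuCC-A1 (log2 fold change of HuCC-A1 against HuCC-T1 2.48 ± 0.45, adjusted p = 0.00016). Without HuCC-T1 replicate 5 the log2 fold changes were -3.30 and 3.17.

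HERC5 (chr4:88457117-88506163) was close to absent in HuCC-T1. Its reads numbered 15, 2, 23, 1 and 31 in HuCC-T1 replicates 1 to 5. In HuCC-A1 it had 55.6, 64.5, 31.5, 46.6 and 38.6 CPM, in EGI-1 41.9, 62.4, 60.4, 46.9 and 46.5 CPM, and in HuCC-T1 0.480, 0.0692, 0.860, 0.0353 and 0.965 CPM. The other models overlapped each other, and HuCC-T1 was 106-fold below EGI-1 (log2 fold change -6.72 ± 0.49, adjusted p = 7.4e-09) and 96.8-fold below HuCC-A1. Within HuCC-T1, replicates 3 and 5 had the most HERC5. HERC6, which lies next to HERC5 on chromosome 4 (chr4:88378739-88443111), kept 27.3 to 93.4 CPM in HuCC-T1 against 79.0 to 138 CPM in EGI-1 (log2 fold change -0.84 ± 0.30, adjusted p = 0.024). That call was lost without EGI-1 replicate 5 or without HuCC-T1 replicate 1, 2 or 4, with log2 fold changes between -0.63 and -0.74.

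USP18 was at 55.1, 97.1, 39.5, 61.4 and 45.4 CPM in HuCC-A1, at 36.2, 52.8, 31.8, 24.5 and 36.7 CPM in EGI-1 and at 3.33, 5.98, 16.3, 5.40 and 17.2 CPM in HuCC-T1. HuCC-T1 did not overlap the other models, at 3.78-fold below EGI-1 (log2 fold change -1.92 ± 0.39, adjusted p = 0.00053) and 6.19-fold below HuCC-A1. USP18 shares 15.4% of its 100-base transcript stretches with USP41, so part of its reads cannot be assigned with certainty.

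**Figure D4:**
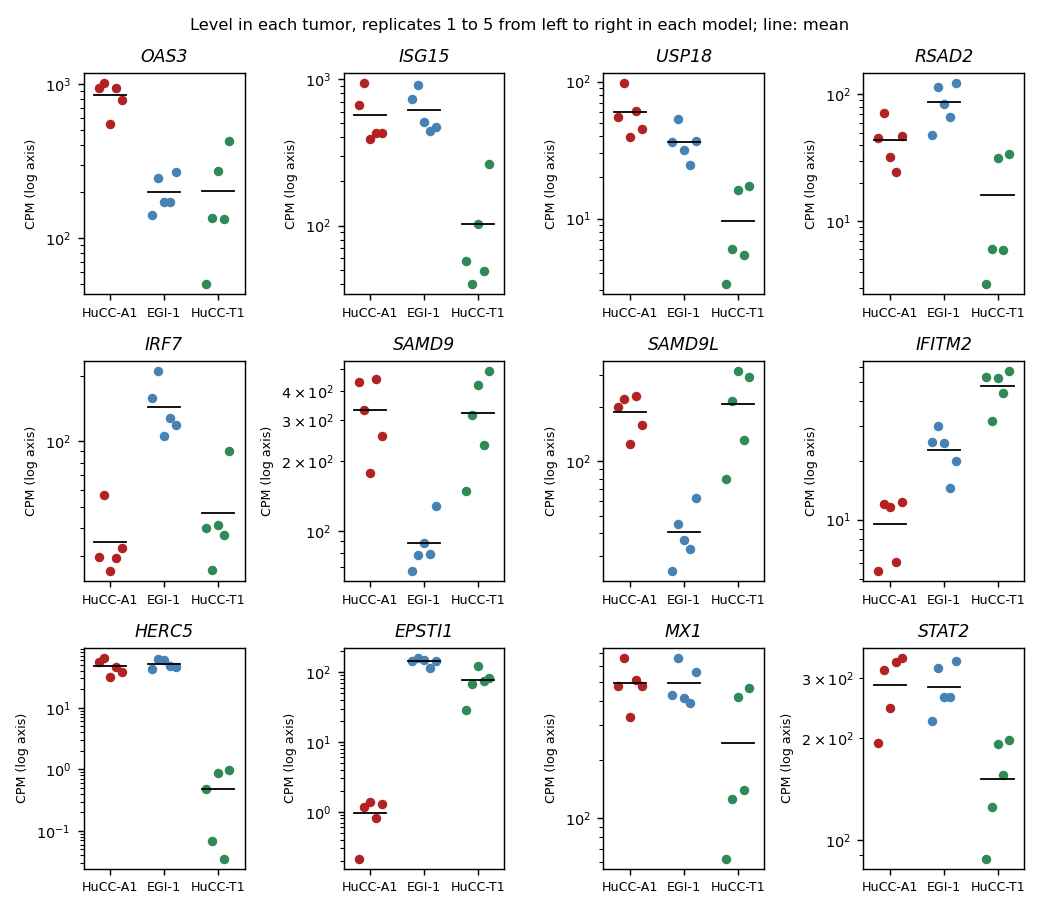
Level of 12 members in each tumor, in CPM on a log axis, with replicates 1 to 5 from left to right within a model and the mean as a line. HERC5 lies below 1 CPM in HuCC-T1 and EPSTI1 at or below 1.36 CPM in HuCC-A1, and HuCC-T1 replicates 3 and 5 lie above replicates 1, 2 and 4 for OAS3, ISG15, USP18, RSAD2, MX1, STAT2 and HERC5.

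The transcription factors were lower in HuCC-T1 than in EGI-1, 4 of 4, where 25.0% of all genes were called lower. No HuCC-T1 tumor reached any EGI-1 tumor in any of them, where 18.8% of all genes were so separated. STAT2 and IRF9, both subunits of the complex that binds the response element, fell by 0.90 ± 0.21 (adjusted p = 0.0020) and by 1.57 ± 0.25 (adjusted p = 4.7e-05) on the log2 scale. For IRF9, 48.4% of the exon bases also belong to another annotated gene on the same strand. IRF1, an activator of interferon genes, had -1.25 ± 0.20 (adjusted p = 4.7e-05). These 3 genes were higher in HuCC-A1 than in HuCC-T1, by 0.92, 1.67 and 0.85 on the log2 scale, and were not called between HuCC-A1 and EGI-1.

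IRF7, the factor that amplifies type I interferon production, followed another order. It was at 158, 211, 105, 127 and 119 CPM in EGI-1, at 29.6, 57.0, 25.4, 29.3 and 32.4 CPM in HuCC-A1 and at 40.3, 25.9, 41.6, 37.2 and 90.7 CPM in HuCC-T1. EGI-1 tumors were above all others. HuCC-A1 was 4.15-fold below EGI-1 (log2 fold change -2.05 ± 0.31, adjusted p = 2.3e-05), HuCC-T1 had a log2 fold change of -1.61 ± 0.30 against EGI-1 (adjusted p = 0.00026), and HuCC-A1 and HuCC-T1 did not differ past the threshold (-0.44 ± 0.30, adjusted p = 0.22).

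Of the 2-5A synthetases, 3 of 4 were called above EGI-1 and 4 of 4 above HuCC-T1 in HuCC-A1 (29.4% and 29.1% of all genes). OAS1, OAS2 and OAS3 sense double-stranded RNA and make the messenger that activates RNase L, and OASL, which has lost that activity, supports RIG-I. Those above EGI-1 were OAS2, OAS3 and OASL. OAS3 (chr12:112938352-112973249) was at 945, 1015, 549, 952 and 793 CPM in HuCC-A1, at 141, 246, 170, 172 and 268 CPM in EGI-1 and at 50.0, 135, 271, 133 and 427 CPM in HuCC-T1. Every HuCC-A1 tumor was above every tumor of the other models, which overlapped each other. The difference was 4.27-fold from EGI-1 (log2 fold change 2.09 ± 0.40, adjusted p = 0.00027) and 4.19-fold from HuCC-T1 (2.07 ± 0.40, adjusted p = 0.00031).

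OASL was at 154, 183, 90.3, 119 and 115 CPM in HuCC-A1, at 67.2, 68.6, 80.1, 48.0 and 54.1 CPM in EGI-1 and at 18.8, 10.6, 26.3, 9.99 and 42.4 CPM in HuCC-T1. The 3 models did not overlap, in the order HuCC-A1, EGI-1, HuCC-T1, at 1.06 ± 0.32 for HuCC-A1 (adjusted p = 0.0094) and -1.56 ± 0.32 for HuCC-T1 (adjusted p = 0.00066) against EGI-1 on the log2 scale. OAS2 followed OAS3, with 1.38 ± 0.35 for HuCC-A1 against EGI-1 and -0.04 ± 0.34 for HuCC-T1 against EGI-1. OAS1 followed neither and was lower in HuCC-T1 alone (-1.16 ± 0.26 against EGI-1, adjusted p = 0.0014), with 0.49 ± 0.26 for HuCC-A1 (adjusted p = 0.12). OAS1, OAS3 and OAS2 lie side by side on chromosome 12.

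Few of the RNA sensors were called. RIG-I (DDX58), MDA5 (IFIH1) and DDX60 were not called against EGI-1 in either model, with log2 fold changes from -0.58 to 0.47. DDX58 was higher in HuCC-A1 than in HuCC-T1 (1.02 ± 0.35, adjusted p = 0.020), a call that was lost without HuCC-A1 replicate 2 or HuCC-T1 replicate 4, with 0.83 and 0.86.

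The IFIT proteins bind viral RNA ends and stop its translation. IFIT1, IFIT2 and IFIT3 were higher in HuCC-A1 than in HuCC-T1, with log2 fold changes of 1.21 to 2.06, and IFIT5 had 0.02 ± 0.27. Against EGI-1 IFIT2 was higher in HuCC-A1 (1.49 ± 0.40, adjusted p = 0.0043), and none of the 4 was called in HuCC-T1. Without HuCC-T1 replicate 5, IFIT1, IFIT2 and IFIT3 were each called lower in HuCC-T1 than in EGI-1, with log2 fold changes of -1.17, -1.11 and -1.54 in place of -0.66, -0.57 and -1.03. IFIT3 was also called lower with DESeq2 (adjusted p = 0.042), with no filter (adjusted p = 0.022) and without HuCC-T1 replicate 3 (-1.25). The call of IFIT1 between HuCC-A1 and HuCC-T1 was lost without HuCC-A1 replicate 2 or HuCC-T1 replicate 1, 2 or 4, with 0.95 to 1.03. The 4 genes form a cluster on chromosome 10.

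MX1 and MX2 are GTPases that trap viral nucleocapsids. MX2 was at 128, 182, 91.5, 158 and 135 CPM in HuCC-A1, at 80.0, 178, 77.3, 80.5 and 171 CPM in EGI-1 and at 17.5, 46.3, 132, 40.3 and 159 CPM in HuCC-T1. The models overlapped and MX2 was not called in any comparison. Without HuCC-T1 replicate 5 it was called higher in HuCC-A1 than in HuCC-T1, at 1.21 in place of 0.81 on the log2 scale. MX1 was called lower in HuCC-T1 than in EGI-1 (-1.02 ± 0.41, adjusted p = 0.043) and higher in HuCC-A1 than in HuCC-T1 (1.02 ± 0.41, adjusted p = 0.040). Both calls lie next to the threshold. The first was lost without EGI-1 replicate 1, 2, 3 or 5 or HuCC-T1 replicate 1, 2 or 4 (-0.74 to -1.08), and the second without HuCC-A1 replicate 1, 2, 4 or 5 or HuCC-T1 replicate 1, 2 or 4 (0.72 to 1.03). Both were also lost in the fits of only the 10 tumors compared (-1.01, adjusted p = 0.072, and 0.98, adjusted p = 0.084).

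Among the membrane proteins that hold back virus entry and release, IFITM2 went against IFITM1 and IFITM3. IFITM1 was at 156, 240, 146, 118 and 212 CPM in HuCC-A1, at 101, 181, 70.5, 80.7 and 123 CPM in EGI-1 and at 50.7, 36.5, 106, 46.6 and 161 CPM in HuCC-T1. The models overlapped, and IFITM1 was higher in HuCC-A1 than in HuCC-T1 (1.12 ± 0.36, adjusted p = 0.014), as were IFITM3 (1.02 ± 0.32, adjusted p = 0.011) and BST2 (0.87 ± 0.26, adjusted p = 0.0081). BST2 was also lower in HuCC-T1 than in EGI-1, with no overlap (-1.13 ± 0.26, adjusted p = 0.0015). Without HuCC-T1 replicate 5, IFITM1 (-0.89) and IFITM3 (-0.98) were called lower there too. IFITM2 was at 5.45, 12.0, 11.6, 6.12 and 12.3 CPM in HuCC-A1, at 24.9, 29.9, 24.4, 14.4 and 19.8 CPM in EGI-1 and at 53.3, 31.7, 52.4, 43.9 and 57.4 CPM in HuCC-T1. The 3 models did not overlap, in the order opposite to that of OASL: HuCC-T1 was above EGI-1 (1.07 ± 0.25, adjusted p = 0.0017), and HuCC-A1 was below EGI-1 (-1.25 ± 0.25, adjusted p = 0.00045) and 5.02-fold below HuCC-T1. The IFITM genes are close paralogs, and 22.7% of the exon bases of IFITM2 and 32.5% of those of IFITM1 are annotated to both genes, so the split of reads between them is uncertain.

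The enzymes that act on nucleotides and RNA were lower in HuCC-T1 than in EGI-1, 3 of 3, with no overlap between the tumors. Over all genes 25.0% were called lower there and 18.8% were lower without overlap. RSAD2 (viperin), which makes a chain-terminating nucleotide, was at 47.9, 114, 83.8, 66.01 and 123 CPM in EGI-1, at 45.4, 71.6, 32.2, 24.5 and 47.1 CPM in HuCC-A1 and at 3.20, 6.09, 31.8, 5.97 and 33.9 CPM in HuCC-T1. Replicates 3 and 5 of HuCC-T1 reached the range of HuCC-A1 and the other 3 did not. The log2 fold change of HuCC-T1 against EGI-1 was -2.42 ± 0.55 (adjusted p = 0.0012), and that of HuCC-A1 against HuCC-T1 was 1.45 ± 0.53 (adjusted p = 0.027), a call lost without HuCC-A1 replicate 2 or HuCC-T1 replicate 1, 2 or 4 (1.12 to 1.21). The call between HuCC-A1 and HuCC-T1 was also lost in the fit of only these 10 tumors (1.40, adjusted p = 0.056).

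CMPK2, a mitochondrial nucleotide kinase that lies head to head with RSAD2 on chromosome 2, was at 40.5, 68.6, 51.4, 49.0 and 78.1 CPM in EGI-1, at 8.11, 26.1, 17.5, 12.2 and 35.4 CPM in HuCC-A1 and at 3.84, 8.75, 31.4, 7.95 and 27.3 CPM in HuCC-T1. EGI-1 was above both other models (-1.53 ± 0.48 for HuCC-A1, adjusted p = 0.012, and -1.86 ± 0.49 for HuCC-T1, adjusted p = 0.0039). ISG20, an exonuclease of RNA, was at 40.5, 73.3, 26.7, 28.7 and 24.9 CPM in HuCC-A1, at 41.8, 42.3, 28.8, 32.6 and 29.2 CPM in EGI-1 and at 17.1, 6.02, 10.8, 13.4 and 16.1 CPM in HuCC-T1. It was lower in HuCC-T1 than in EGI-1 (-1.46 ± 0.30, adjusted p = 0.00065).

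SAMD9 and SAMD9L, antiviral proteins that restrain translation and growth, were low in EGI-1 alone. SAMD9 (chr7:93099513-93118023) was at 66.7, 78.3, 88.4, 79.4 and 128 CPM in EGI-1, at 438, 332, 178, 449 and 255 CPM in HuCC-A1 and at 148, 316, 425, 234 and 491 CPM in HuCC-T1. SAMD9L, its neighbor on the same strand (chr7:93130055-93148369), was at 24.6, 45.2, 36.6, 32.9 and 62.9 CPM in EGI-1, at 198, 221, 124, 230 and 159 CPM in HuCC-A1 and at 79.3, 213, 316, 130 and 293 CPM in HuCC-T1. Every EGI-1 tumor was below every other tumor for both genes. SAMD9 was 3.75-fold higher in HuCC-A1 (log2 fold change 1.91 ± 0.31, adjusted p = 5.1e-05) and 3.66-fold higher in HuCC-T1 than in EGI-1 (1.87 ± 0.31, adjusted p = 7.3e-05). SAMD9L was 4.60-fold higher in HuCC-A1 (2.20 ± 0.33, adjusted p = 2.5e-05) and 5.10-fold higher in HuCC-T1 (2.35 ± 0.34, adjusted p = 1.7e-05). HuCC-A1 and HuCC-T1 did not differ past the threshold in either gene (0.03 ± 0.30 and -0.15 ± 0.32). The promoter window of SAMD9L held no match to GAAANNGAAA.

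PARP9 and DTX3L, which form a complex that modifies histones at interferon targets, were not lower in HuCC-T1. DTX3L was higher in HuCC-T1 than in EGI-1 (0.72 ± 0.21, adjusted p = 0.0078) and PARP9 had 0.43 ± 0.25 (adjusted p = 0.16), or 0.66 without HuCC-T1 replicate 1 (adjusted p = 0.011). Neither was called between HuCC-A1 and either other model. Without HuCC-T1 replicate 1 both were called lower in HuCC-A1 than in HuCC-T1, with -0.60 for PARP9 and -0.70 for DTX3L, and the number of members lower in HuCC-A1 than in HuCC-T1 was then 4 in place of 2.

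EPSTI1 (chr13:42886388-42992271), an interferon-induced gene named for epithelial-stromal interaction, had the widest gap of the list. Its reads numbered 6, 23, 51, 25 and 42 in HuCC-A1 replicates 1 to 5 and 3947 to 6548 in EGI-1. It was at 0.212, 1.15, 1.36, 0.805 and 1.29 CPM in HuCC-A1, at 145, 159, 151, 115 and 145 CPM in EGI-1 and at 29.1, 67.5, 124, 74.9 and 83.0 CPM in HuCC-T1. Every HuCC-A1 tumor was far below every other, by 147-fold from EGI-1 (log2 fold change -7.20 ± 0.42, adjusted p = 3.7e-10) and by 77.7-fold from HuCC-T1 (-6.28 ± 0.41, adjusted p = 1.6e-09). HuCC-T1 was lower than EGI-1 (-0.92 ± 0.31, adjusted p = 0.021).

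Of the remaining members, IFI35, a partner of NMI, was at 136, 163, 108, 94.9 and 111 CPM in EGI-1, at 52.5, 110, 32.7, 47.7 and 45.1 CPM in HuCC-A1 and at 31.8, 19.5, 34.6, 24.6 and 64.3 CPM in HuCC-T1. It was lower than in EGI-1 in both, with -1.09 ± 0.32 (adjusted p = 0.0077) and -1.81 ± 0.33 (adjusted p = 0.00017), and HuCC-A1 replicate 2 alone of its model lay within the range of EGI-1. IFI44L was at 425, 545, 324, 498 and 405 CPM in HuCC-A1, at 99.9, 259, 141, 107 and 262 CPM in EGI-1 and at 44.7, 162, 303, 123 and 210 CPM in HuCC-T1. HuCC-A1 was above all others (1.34 ± 0.38 against EGI-1, adjusted p = 0.0066). Its neighbor IFI44 had 0.85 ± 0.29 against EGI-1 (adjusted p = 0.018), a call lost without HuCC-A1 replicate 4 (0.69) or EGI-1 replicate 4 (0.75).

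IFI6 was lower in HuCC-T1 than in EGI-1 (-1.68 ± 0.39, adjusted p = 0.0016) and was not called between HuCC-A1 and EGI-1 (0.80 ± 0.38, adjusted p = 0.086). IFI27 and XAF1 were not called in any comparison. Without HuCC-T1 replicate 5, IFI27 was called lower in HuCC-T1 than in EGI-1 (-0.86) and higher in HuCC-A1 than in HuCC-T1 (0.79). XAF1, which counters an inhibitor of apoptosis, was at 106, 112, 64.8, 120 and 83.9 CPM in HuCC-A1, at 28.0, 95.8, 55.4, 57.0 and 107 CPM in EGI-1 and at 24.2, 82.8, 103, 67.7 and 89.8 CPM in HuCC-T1. The models overlapped, and 38.3% of its exon bases lie opposite another gene.

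Most members ranked the tumors of a model alike. Members with a mean of at least 1 CPM in a model are counted here, 38 in HuCC-A1, 39 in EGI-1 and 38 in HuCC-T1. In HuCC-A1, replicate 2 was the highest tumor for 28 of 38 members (73.7%), against 27.9% of all genes with such a mean, and replicate 3 was the lowest for 26 of 38 (68.4%), against 15.3%. In EGI-1, replicates 2 and 5 were the highest for 22 and 16 of 39 members (56.4 and 41.0%, against 14.4 and 26.8% of all genes), and replicates 1 and 4 were the lowest for 19 and 16.

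In HuCC-T1, replicate 5 was among the 2 highest tumors for 38 of 38 members and replicate 3 for 35 of 38, against 44.1 and 37.2% of all genes. Replicate 1 was the lowest for 25 of 38 members (65.8%, against 29.8% of all genes) and replicate 2 for 12 (31.6%, against 22.5%). The spread was also widest in HuCC-T1, with a median ratio of highest to lowest tumor of 4.01 over the members and 1.92 over all genes. In HuCC-A1 that ratio was 2.04 against 1.71, and in EGI-1 it was 1.82 against 1.52. At least 4-fold spread was found for 19 of 38 members in HuCC-T1 (9.65% of all genes). It was found for 1 in HuCC-A1 (CMPK2, 9.15% of all genes) and for 0 in EGI-1 (3.19% of all genes). RSAD2 had the widest spread in HuCC-T1 (10.6-fold) and IFITM2 the narrowest (1.81-fold). Members of 1 tumor share its library, and these ranks describe the tumors without a test.

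The other genes of the pathway were taken from lists outside the 39 members. Of 22 genes for interferon ligands, IFNA1 and IFNE alone passed the filter. IFNE, an interferon that some epithelia make without infection, was at 91.3, 82.4, 81.5, 46.2 and 48.7 CPM in HuCC-T1, at 5.45, 14.3, 12.3, 13.5 and 13.2 CPM in HuCC-A1 and at 0.366, 0.756, 0.991, 0.699 and 0.845 CPM in EGI-1. The 3 models did not overlap. The log2 fold change was 6.56 ± 0.34 in HuCC-T1 (adjusted p = 1.5e-10) and 3.99 ± 0.31 in HuCC-A1 (adjusted p = 1.3e-08) against EGI-1.

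IFNA1, of type I, was at 2.48, 1.90, 0.560, 0.741 and 1.75 CPM in HuCC-A1, at 2.21, 2.73, 4.19, 1.48 and 1.93 CPM in HuCC-T1 and had no count in EGI-1 except 5 counts in replicate 2. It was higher in both models than in EGI-1 (adjusted p = 1.8e-05 and 6.1e-06). Its sequence is close to that of IFNA13, so the assignment of its reads is uncertain. The other 20 ligand genes did not pass the filter. Among them IFNB1 had 29 counts over the HuCC-A1 tumors, 8 over the EGI-1 tumors and 11 over the HuCC-T1 tumors, IFNL1 had 78, 24 and 6, IFNL3 had 26, 6 and 7, and IFNK had 7, 3 and 52, all named after their values were seen.

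Of 10 receptor and kinase genes 1 was higher and 4 were lower in HuCC-A1 than EGI-1, and 1 was higher and 4 were lower in HuCC-T1 than in EGI-1. The shares over all genes in these comparisons, 29.4% higher and 26.0% lower in HuCC-A1 and 27.3% higher and 25.0% lower in HuCC-T1, hold for this and the following lists. IFNAR1 was at 73.1, 62.3, 50.7, 62.9 and 57.9 CPM in HuCC-A1, at 77.0, 79.2, 90.1, 90.5 and 122 CPM in EGI-1 and at 61.5, 129, 105, 93.0 and 77.4 CPM in HuCC-T1. HuCC-A1 was below EGI-1 without overlap (-0.58 ± 0.18, adjusted p = 0.012). IFNGR1, of the receptor for interferon-gamma, was at 55.2, 59.4, 52.6, 54.7 and 56.5 CPM in HuCC-A1, at 77.8, 78.9, 92.9, 71.5 and 117 CPM in EGI-1 and at 30.5, 40.5, 45.7, 35.0 and 53.2 CPM in HuCC-T1. EGI-1 was above both others, with -0.66 ± 0.16 (adjusted p = 0.0021) and -1.10 ± 0.16 (adjusted p = 2.3e-05).

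TYK2 was at 126, 163, 178, 179 and 162 CPM in HuCC-A1, at 161, 151, 152, 159 and 135 CPM in EGI-1 and at 75.1, 57.1, 66.4, 89.7 and 89.5 CPM in HuCC-T1. It was lower in HuCC-T1 than in EGI-1 (-1.004 ± 0.142, adjusted p = 1.6e-05), with no overlap. IL10RB was at 0.567, 1.15, 1.04, 1.45 and 1.78 CPM in HuCC-A1, at 2.84, 2.15, 3.16, 2.56 and 4.43 CPM in EGI-1 and at 0.991, 1.31, 1.53, 1.38 and 1.06 CPM in HuCC-T1. It was lower than in EGI-1 in HuCC-A1 (-1.33 ± 0.32, adjusted p = 0.0018) and in HuCC-T1 (-1.27 ± 0.32, adjusted p = 0.0029), and 38.1% of its exon bases belong also to a readthrough gene, so its level is uncertain.

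**Figure D5:**
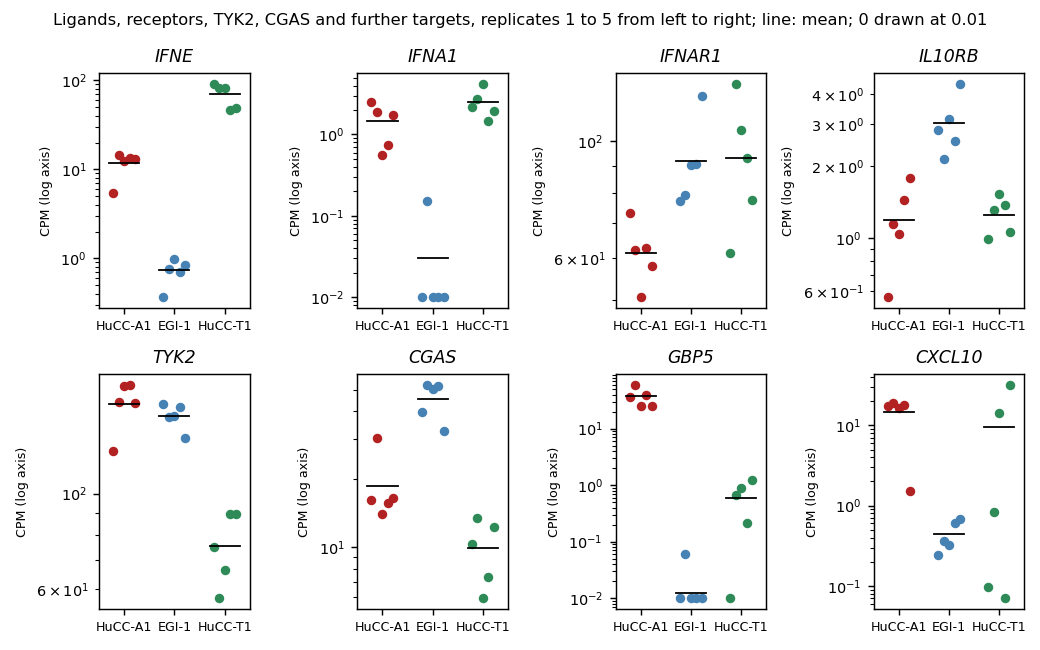
Level of 8 other genes of the pathway in each tumor, in CPM on a log axis, with replicates 1 to 5 from left to right within a model, the mean as a line and a value of 0 drawn at 0.01. IFNE is highest in HuCC-T1 and lowest in EGI-1, GBP5 is above 20 CPM in the HuCC-A1 tumors alone, and CXCL10 exceeds 10 CPM in 4 HuCC-A1 tumors and in HuCC-T1 replicates 3 and 5.

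Of 14 genes that sense nucleic acid and relay the signal, 4 were higher and 4 lower in HuCC-A1, and 0 higher and 7 lower in HuCC-T1, each against EGI-1. The shares in HuCC-A1, 28.6% in each direction, were close to those over all genes. CGAS, the sensor of DNA in the cytosol, was at 39.8, 52.5, 50.1, 51.7 and 32.7 CPM in EGI-1, at 16.2, 30.6, 14.0, 15.7 and 16.4 CPM in HuCC-A1 and at 10.3, 13.5, 5.91, 7.35 and 12.2 CPM in HuCC-T1. The 3 models did not overlap (-1.29 ± 0.25, adjusted p = 0.00028, and -2.20 ± 0.26, adjusted p = 1.9e-06). IFI16, also a DNA sensor, was at 198, 238, 169, 205 and 184 CPM in HuCC-A1, at 65.2, 88.9, 79.2, 70.1 and 91.1 CPM in EGI-1 and at 42.7, 95.1, 129, 77.0 and 135 CPM in HuCC-T1. It was above EGI-1 in HuCC-A1 (1.33 ± 0.23, adjusted p = 0.00011) and, without HuCC-T1 replicate 1, also in HuCC-T1 (0.50 in place of 0.28).

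TLR3, the endosomal receptor for double-stranded RNA, was at 7.05, 6.80, 3.65, 8.40 and 5.28 CPM in HuCC-A1, at 11.1, 15.5, 17.4, 12.5 and 28.6 CPM in EGI-1 and at 8.57, 18.9, 23.6, 14.8 and 17.8 CPM in HuCC-T1. HuCC-A1 was below both others (-1.45 ± 0.30, adjusted p = 0.00053, against EGI-1). IRF5 was at 15.3, 20.9, 23.0, 23.8 and 28.7 CPM in HuCC-A1, at 16.4, 14.2, 13.3, 12.7 and 13.0 CPM in EGI-1 and at 5.44, 2.80, 2.43, 3.60 and 2.06 CPM in HuCC-T1. HuCC-T1 was below both others (-2.09 ± 0.24, adjusted p = 2.0e-06, against EGI-1).

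Of 15 genes that restrain interferon signaling or remove its triggers, TREX1 had no count in any tumor. All of its annotated exon bases (100%) lie within ATRIP, so that its 0 cannot be read as absence. Of the other 14, 6 were higher (42.9%) and 1 lower (7.14%) in HuCC-A1, and 3 higher (21.4%) and 4 lower (28.6%) in HuCC-T1, against EGI-1, the last 2 shares near those over all genes. SAMHD1, which degrades nucleotides, was at 358, 269, 239, 232 and 172 CPM in HuCC-A1, at 48.4, 62.6, 39.6, 35.6 and 50.2 CPM in EGI-1 and at 42.4, 63.8, 103, 37.7 and 121 CPM in HuCC-T1. HuCC-A1 was above all others (2.43 ± 0.30, adjusted p = 2.7e-06, against EGI-1). Without HuCC-T1 replicate 1 or 4, HuCC-T1 was called above EGI-1 (0.82 and 0.80, in place of 0.64).

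SOCS3, a feedback inhibitor of JAK kinases, was at 21.0, 68.5, 16.0, 9.66 and 24.2 CPM in HuCC-A1, at 6.59, 7.99, 3.25, 7.69 and 3.30 CPM in EGI-1 and at 22.5, 10.6, 19.9, 19.9 and 24.4 CPM in HuCC-T1. EGI-1 was below both others (2.27 ± 0.44, adjusted p = 0.00029, and 1.76 ± 0.43, adjusted p = 0.0025), and without HuCC-A1 replicate 2 the first value was 1.62. SOCS1, of the same family, was at 3.72, 7.10, 4.16, 5.76 and 5.65 CPM in HuCC-A1, at 4.15, 4.45, 3.62, 3.47 and 4.30 CPM in EGI-1 and at 1.69, 0.692, 0.673, 0.883 and 3.21 CPM in HuCC-T1. It was lower in HuCC-T1 than in EGI-1 (-1.47 ± 0.38, adjusted p = 0.0034), with no overlap.

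The gene of interferon-gamma, IFNG, had 0 counts over the HuCC-A1 and the EGI-1 tumors and 2 over the HuCC-T1 tumors. Of 11 genes listed as of the interferon-gamma type 10 were tested. In HuCC-A1 6 were higher and 1 lower, and in HuCC-T1 4 were higher and 1 lower, against EGI-1. In HuCC-A1 4 were higher and 1 lower than in HuCC-T1, where 29.1% of all genes were higher and 27.2% lower. GBP5, a GTPase of inflammasome assembly, was at 36.9, 59.7, 24.9, 39.3 and 25.5 CPM in HuCC-A1, had 2 counts over the 5 EGI-1 tumors, and 0, 19, 24, 6 and 39 counts in HuCC-T1. CXCL10, a chemokine for T cells, was at 17.3, 19.05, 16.6, 18.1 and 1.503 CPM in HuCC-A1, at 0.244, 0.363, 0.322, 0.611 and 0.691 CPM in EGI-1 and at 0.0959, 0.830, 14.4, 0.0706 and 32.0 CPM in HuCC-T1. HuCC-A1 did not overlap EGI-1, and in HuCC-T1 replicates 3 and 5 alone were above 1 CPM. The log2 fold change against EGI-1 was 5.01 ± 1.22 in HuCC-A1 (adjusted p = 0.0021) and 4.39 ± 1.20 in HuCC-T1 (adjusted p = 0.0052), or 3.09 in HuCC-T1 without replicate 5.

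CXCL11, of the same receptor, was at 10.8, 8.55, 4.61, 6.73 and 0.491 CPM in HuCC-A1, at 0.122, 0.696, 0.161, 0.262 and 0.282 CPM in EGI-1 and at 0, 0.277, 5.76, 0 and 9.69 CPM in HuCC-T1. Again replicates 3 and 5 held nearly all reads of HuCC-T1, and the call against EGI-1 (3.37 ± 1.20, adjusted p = 0.026) was lost without HuCC-T1 replicate 3 (3.04) or 5 (2.30), or without EGI-1 replicate 1, 3 or 4 (3.17 to 3.32). CIITA, the master regulator of MHC class II, was at 5.92, 5.36, 17.6, 9.46 and 11.6 CPM in HuCC-T1, at 1.45, 2.35, 2.27, 3.28 and 4.08 CPM in HuCC-A1 and at 1.07, 2.33, 1.70, 1.63 and 2.69 CPM in EGI-1. HuCC-T1 was above both others (2.40 ± 0.37, adjusted p = 3.7e-05, against EGI-1), and 23.4% of its exon bases lie within other genes.

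Of 30 further interferon-induced genes 6 were higher (20.0%) and 12 lower (40.0%) in HuCC-A1, and 4 higher (13.3%) and 10 lower (33.3%) in HuCC-T1, against EGI-1. LAMP3, a lysosomal protein, was at 125, 201, 106, 109 and 114 CPM in HuCC-A1, at 7.41, 16.6, 10.7, 8.24 and 17.5 CPM in EGI-1 and at 2.75, 10.1, 26.8, 3.96 and 32.6 CPM in HuCC-T1. RTP4, a chaperone of receptors, was at 30.5, 52.9, 28.1, 35.1 and 32.6 CPM in HuCC-A1, at 13.2, 16.4, 14.8, 11.4 and 14.3 CPM in EGI-1 and at 2.65, 2.63, 5.76, 2.01 and 6.73 CPM in HuCC-T1. Both were above EGI-1 in HuCC-A1 without overlap (3.43 ± 0.55, adjusted p = 4.2e-05, and 1.35 ± 0.29, adjusted p = 0.00063).

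LY6E, a surface protein that limits coronavirus entry, was at 1452, 1922, 1154, 1330.45 and 1319 CPM in EGI-1, at 650, 1264, 690, 667 and 978 CPM in HuCC-A1 and at 262, 211, 426, 277 and 625 CPM in HuCC-T1. The transcription factor ETV7 was at 5.92, 12.5, 8.71, 5.74 and 10.8 CPM in EGI-1, at 0.531, 1.45, 1.31, 2.16 and 2.02 CPM in HuCC-A1 and at 0.288, 0.138, 0.823, 0.212 and 1.21 CPM in HuCC-T1. Both were lower than in EGI-1 in HuCC-A1 (-0.76 ± 0.27, adjusted p = 0.026, and -2.54 ± 0.49, adjusted p = 0.00028) and in HuCC-T1 (-1.99 ± 0.28 and -4.01 ± 0.53). For LY6E the call in HuCC-A1 was lost without HuCC-A1 replicate 1 (-0.69) or EGI-1 replicate 2 (-0.65).

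The summed level of 7 epithelial markers was 5984 to 8221 CPM in HuCC-A1, 15172 to 26453 CPM in EGI-1 and 6630 to 18360 CPM in HuCC-T1. The 10 leukocyte markers summed to 21.1 to 55.1, 28.9 to 40.7 and 15.2 to 46.5 CPM, with AIF1 at 0 in every tumor of HuCC-A1 and HuCC-T1, and TYROBP at 0 in every tumor of EGI-1 and HuCC-T1. The 6 fibroblast markers summed to 423 to 947 CPM in HuCC-A1, 73.8 to 127 CPM in EGI-1 and 96.4 to 504 CPM in HuCC-T1, and the 5 endothelial markers to 15.4 to 31.2, 2.99 to 4.22 and 13.3 to 24.9 CPM. Genes of a list did not all go 1 way. In HuCC-A1 against EGI-1, 3 fibroblast markers were called higher and 1 lower, and 2 epithelial markers higher and 4 lower (29.4% and 26.0% of all genes). The tumors grew in mice and the reads were mapped to the human genome, so these sums do not measure the host's cells. The part of stroma in the results was not tested. In bulk tumors, fewer cells of a type and less RNA per cell cannot be told apart.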

How the data were processed

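RNA of 15 vehicle-treated CDX tumors was analysed, with groups taken from the sample labels. The authors deposited raw read counts per gene. According to the submitters' processing notes, CASAVA, HISAT2 2.0.5 and featureCounts 1.5.0-p3 were used with GRCh38. The kit was directional. How the counting used strand and annotation, and whether reads of the host were removed, is not given in the sources used here. All 58735 identifiers matched GENCODE release 29, which gave names, positions and exons.

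Counts were fitted with edgeR 4.0.16 in R 4.3.3 over all 15 tumors (TMM factors, filterByExpr on the 3 groups, quasi-likelihood F test, 12 residual degrees of freedom). Adjusted p-values are Benjamini-Hochberg over 21019 genes. Alternatives were RLE factors, no filter, only the 10 tumors compared, a minimum of 10 counts in each library, the replicate number as a block, DESeq2 1.42.0, a fold of at least 2 and leaving out each tumor. The fit was tested on simulated data. Replicates of a model differed by more than counting noise.

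The members and lists were chosen with earlier results of these data known. All members are accounted for, and values in every tumor are given for the 5 called members of largest change per comparison, the 3 of widest spread per model and the 2 most changed called genes of each other list per comparison, all with a mean of at least 1 CPM, besides IFITM2, chosen after its values were seen. Some named genes are not reported here. Figures were drawn with matplotlib 3.10.9.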

Additional observations from a re-analysis of the deposited data

Results flagged for a closer look

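In 11 of 171 sets of 5 tumors (1 gene in 1 model) a single tumor stood apart from the other 4, by a gap of more than 0.71 of the whole range (Dixon's test at 95%), and chance gives about 1 in 20. Of the 11, 7 concern HuCC-A1 replicate 2 as the highest tumor. It had 57.0 CPM of IRF7 against 25.4 to 32.4 in the other HuCC-A1 tumors, 597 CPM of BST2 against 285 to 374, and 110.3 CPM of IFI35 against 32.7 to 52.5. It also had 30.6 CPM of CGAS against 14.0 to 16.4, 68.5 CPM of SOCS3 against 9.66 to 24.2, 200.7 CPM of LAMP3 against 106 to 125, and 52.9 CPM of RTP4 against 28.1 to 35.1. HuCC-T1 replicate 5 had 90.7 CPM of IRF7 against 25.9 to 41.6 and 263 CPM of ISG15 against 39.9 to 102. The others were low values in HuCC-A1: 5.45 CPM of IFNE in replicate 1 against 12.3 to 14.3 and 1.503 CPM of CXCL10 in replicate 5 against 16.6 to 19.05.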

How the results depend on the processing

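No member changed direction with a call under any alternative. Of the 13, 22 and 26 members called (HuCC-A1 against EGI-1, HuCC-T1 against EGI-1, HuCC-A1 against HuCC-T1), 12, 20 and 22 were called under every alternative fit that tested them. The fold of at least 2 was applied to the numbers of members alone and is left out here. STAT2, for example, falls short of that fold in HuCC-T1 against EGI-1 (-0.90). With at least 10 counts in each library, EPSTI1 and HERC5 were not tested. The calls lost at least once were IFI44, then HERC6 and MX1, then DDX58, IFIT1, MX1 and RSAD2. Of the 26, 17 and 13 members not called, 18, 9 and 8 were called under no alternative. The calls gained at least once were DDX60, HERC6, IFI6, IFITM1, IRF1, OAS1, RSAD2 and USP18, then IFI27, IFIH1, IFIT1, IFIT2, IFIT3, IFITM1, IFITM3 and PARP9, then DTX3L, IFI27, IFI35, MX2 and PARP9. With only the 10 tumors compared, 13 members were higher and 8 lower in HuCC-A1 than in EGI-1. With at least 10 counts in each library 1 member, IFITM2, was lower in HuCC-A1 than in HuCC-T1. The other, EPSTI1, had 6 counts in HuCC-A1 replicate 1 and was removed by that filter. Leaving out 1 tumor gave 7 to 9 members higher and 5 to 6 lower in HuCC-A1 than in EGI-1, 4 to 5 higher and 16 to 25 lower in HuCC-T1 than in EGI-1, and 20 to 27 higher and 2 to 4 lower in HuCC-A1 than in HuCC-T1. The 4 was without HuCC-T1 replicate 1. The causes of the other changes were not tested. Replicate numbers did not pair the tumors (correlations of deviations from -0.105 to 0.187). With the replicate number as a block, 9 and 5, 4 and 20, and 25 and 2 members were called, HERC6 was gained between HuCC-A1 and EGI-1 (adjusted p = 0.033), IFIH1 (adjusted p = 0.047) and IFIT3 (adjusted p = 0.039) between HuCC-T1 and EGI-1, and MX2 between HuCC-A1 and HuCC-T1 (adjusted p = 0.048), and CXCL10 (adjusted p = 0.0744) and CXCL11 (adjusted p = 0.195) were no longer called between HuCC-T1 and EGI-1. The values of IFNB1, IFNL1, IFNA1 in EGI-1, GBP5 in EGI-1, HERC5 in HuCC-T1 and EPSTI1 in HuCC-A1 rest on few counts, which limits them.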
